A study of Cucumis sativus var. sativus with 11 samples.

Results

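Among the genes of the cucumber ovary, 18 of 23248 had a higher mean level 1 day after flower opening, both with and without pollination, but lay near the anthesis level in ovaries that had been pollinated while older fruits grew on the same plant. They were chosen by the measured values described here: the level of a gene was log2 of the deposited normalized count plus 1, averaged over the libraries of a group. A gene was taken when its mean normalized count in pollinated ovaries was 50 or more, which 15877 genes met. Its mean log2 level in pollinated and in unpollinated ovaries had also to lie at least 0.7 above both the anthesis and the inhibited level. The pollinated and unpollinated levels had to differ by under 0.7, and the inhibited and anthesis levels by under 0.5. Since this choice used every group of every library, the differences between groups over these genes are a description, and the test calls given further on are no independent support for them.

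All 11 libraries came from ovaries of Elem Female, a cucumber line that bears only female flowers and does not set fruit without pollination, grown as mature plants in a net-house. Anthesis ovaries (A, n = 3) were taken when the flower opened. Pollinated ovaries (F+1, n = 3), which received pollen of a pollinator genotype, and unpollinated ovaries (S+1, n = 3) were taken 1 day later. Inhibited ovaries (f+1, n = 2) were also taken 1 day after pollination, from plants that carried older fruits, and no unpollinated ovaries from such plants were analysed here. Each library was made from 1 ovary, and no label says whether the ovaries grew on separate plants.

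As background, a cucumber ovary at flower opening is an arrested young fruit. Pollination and fertilisation release it into rapid growth by cell division and expansion, and in a line that is not parthenocarpic the unpollinated ovary stops growing and withers. Fruits that set first restrain younger ovaries on the same vine, a behaviour known as fruit dominance or first-fruit inhibition, for which competition for assimilates and hormone export from the older fruits have both been proposed. The genes described here are known only by their identifiers, since no table here links them to gene names (0 matches in the reference). No function is assigned to them, and neither the ovary tissue nor any pathway could be checked against named genes.

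Libraries held 18158218 to 26456643 reads assigned to genes, and the lowest raw count behind any value of the 18 genes was 21 reads. In 4 libraries (pollinated replicates 1 and 3, unpollinated replicate 3 and inhibited replicate 2) reads that were assigned to no single gene made up 16.8 to 24.8% of the library, against 10.8 to 13.3% in the other libraries. The second index sequence had 1 form in all anthesis and pollinated libraries and in unpollinated replicate 1, and another form in the remaining 4 libraries, which include both inhibited ones. Anthesis replicate 3 was sequenced on lane 2 and all others on lane 3.

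The 18 genes together took 0.0861 to 0.135% of the gene reads in the pollinated and unpollinated libraries and 0.0421 to 0.0566% in the anthesis and inhibited libraries. In whole ovaries, a lower level can come from fewer cells of a type or from less RNA per cell, and these cannot be told apart. The median gene was higher than at anthesis by 1.01 (log2) in pollinated and by 1.06 in unpollinated ovaries, while its change in inhibited ovaries was -0.01. Over all genes with a mean of 50 or more the same medians were 0.01, -0.005 and -0.005. The rises ran from 0.75 to 3.11 with pollination and from 0.76 to 2.42 without it, and the change in inhibited ovaries from -0.39 to 0.47. The inhibited mean was above the anthesis level in 9 genes and below it in 9, and it was above in 49.3% of all genes with a mean of 50 or more. The rule bounds this change at 0.5, so its range and the split are a description.

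**Figure D1:**
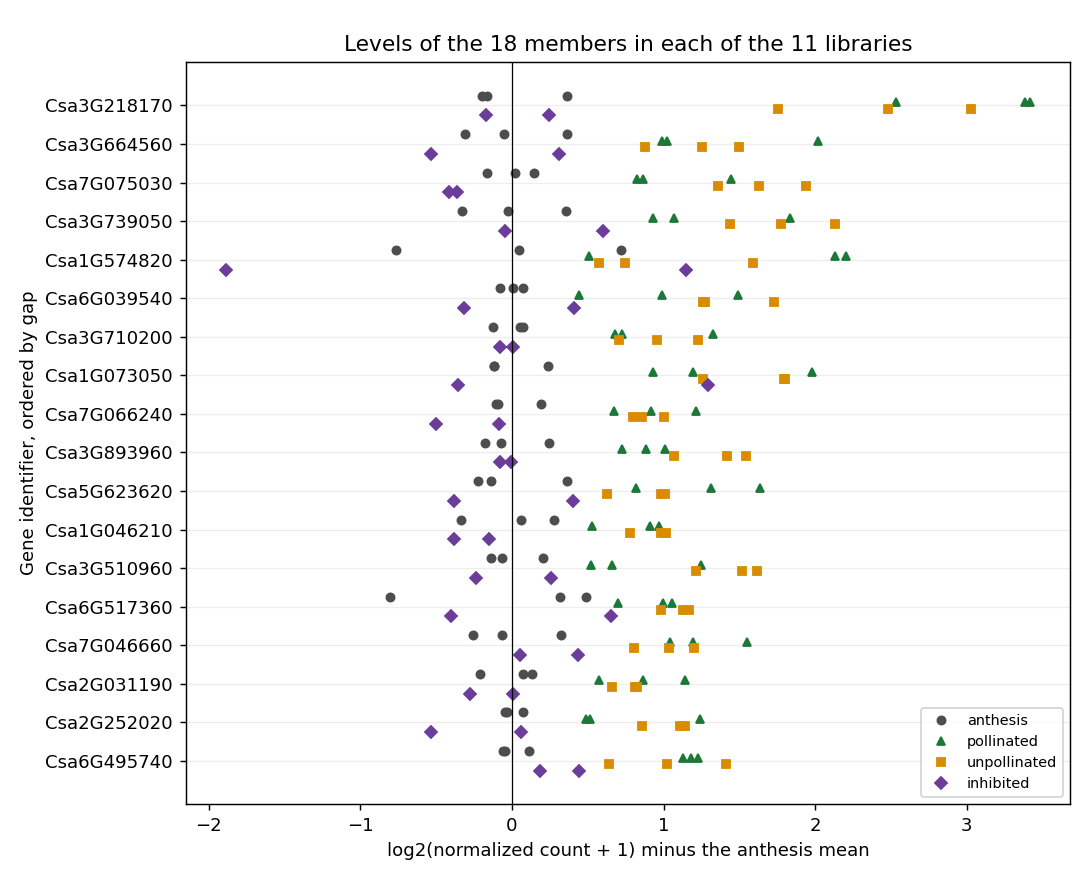
Each row is 1 of the 18 genes, and each symbol 1 library, placed by its log2(normalized count + 1) minus the anthesis mean of that gene. Pollinated (triangles) and unpollinated (squares) libraries all lie to the right of 0, while anthesis (circles) and inhibited (diamonds) libraries lie on both sides of it, with inhibited replicate 1 of Csa1G574820 farthest to the left.

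Library by library, all pollinated and unpollinated values lay above all anthesis and inhibited values in 16 of the 18 genes, as they did in 3.51% of the 15877 genes with a mean of 50 or more. The 2 exceptions were Csa1G574820 and Csa1G073050, in both of which inhibited replicate 2 lay among the high libraries. The rule asks for such an order of the group means. The anthesis and inhibited ranges overlapped in 16 of the 18 and failed to overlap in 2, against 44.9% of all genes with a mean of 50 or more. Csa7G075030 had both inhibited libraries below every anthesis library, and Csa6G495740 had both above. The pollinated and unpollinated ranges failed to overlap in 1 gene, against 47.2% of all genes, although the rule bounds both of these differences. In Csa3G893960 every unpollinated library lay above every pollinated one.

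Csa3G218170 had the widest separation. Its normalized counts were 226, 333 and 231 at anthesis, 2779, 1503 and 2723 in pollinated, 879, 1453 and 2124 in unpollinated and 230.0 and 308 in inhibited ovaries. The inhibited libraries lay within the anthesis range, and the pollinated and unpollinated libraries lay between 879 and 2779. Group means were 264 ± 60.4 at anthesis, 2335 ± 721 in pollinated and 1485 ± 623 in unpollinated (SD, n = 3 each), and 269 ± 54.9 in inhibited ovaries (SD, n = 2). The pollinated mean was 8.86 times and the unpollinated mean 5.64 times the anthesis mean, against 1.02 times for the inhibited mean. The gap of this gene, defined as the lower of its pollinated and unpollinated levels minus the higher of its anthesis and inhibited levels, was 2.39 (log2), and the next widest gap among the 18 was 1.21.

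Csa3G664560 was next, with normalized counts of 1119, 1499 and 938 at anthesis, 4722, 2312 and 2360.3 in pollinated, 2776, 2135 and 3289 in unpollinated and 805 and 1441 in inhibited ovaries. Pollinated replicate 1 had about as many counts as replicates 2 and 3 combined, and inhibited replicate 2 lay near the highest anthesis library. Group means were 1185 ± 286 at anthesis, 3131 ± 1378 in pollinated and 2733 ± 579 in unpollinated (SD, n = 3 each), and 1123 ± 450.1 in inhibited ovaries (SD, n = 2). The pollinated mean was 2.79 times and the unpollinated mean 2.43 times the inhibited mean.

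Csa7G075030 had normalized counts of 96.03, 109 and 119 at anthesis, 296, 197 and 192 in pollinated, 279, 417 and 335 in unpollinated and 83.5 and 80.5 in inhibited ovaries. Here the unpollinated mean was the highest, at 4.19 times the inhibited mean against 2.78 times for pollinated ovaries. Inhibited ovaries stood at 0.758 times the anthesis mean, the lowest such ratio of the 18 genes. Its inhibited libraries also differed little, at 82.02 ± 2.16 (SD, n = 2).

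Csa3G739050 had the lowest levels of the 18, with normalized counts of 20.6, 33.8 and 25.7 at anthesis, 95.7, 50.8 and 56.2 in pollinated, 72.6, 91.95 and 118 in unpollinated and 25.3 and 40.2 in inhibited ovaries. Inhibited replicate 1 lay within the anthesis range and replicate 2 above it, and the lowest pollinated library exceeded the highest inhibited one by 10.5 normalized counts. Csa6G039540 had 70.9, 75.5 and 78.9 at anthesis, 213, 103 and 149.7 in pollinated, 181, 251 and 183 in unpollinated and 60.1 and 99.97 in inhibited ovaries. Its anthesis libraries were close together, at 75.1 ± 4.03 (SD, n = 3), but inhibited replicate 2 and pollinated replicate 2 nearly met. Without inhibited replicate 1 the gap of Csa6G039540 was 0.56 in place of 0.93.

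Csa1G574820 depended on inhibited replicate 1. Its normalized counts were 78.1, 125 and 44.1 at anthesis, 352, 334 and 108 in pollinated, 229, 128 and 113 in unpollinated and 19.7 and 169 in inhibited ovaries. The inhibited libraries differed 8.56-fold, and inhibited replicate 2 was above pollinated replicate 3 and unpollinated replicates 2 and 3. Without inhibited replicate 1 its gap was -0.18, so that the inhibited level lay above the unpollinated one. Csa1G073050 also had discordant inhibited libraries, with normalized counts of 422, 541 and 422 at anthesis, 1809.8, 876 and 1049 in pollinated, 1101, 1589 and 1602 in unpollinated and 359 and 1123 in inhibited ovaries. Its gap of 0.90 was 0.08 without inhibited replicate 1.

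**Figure D2:**
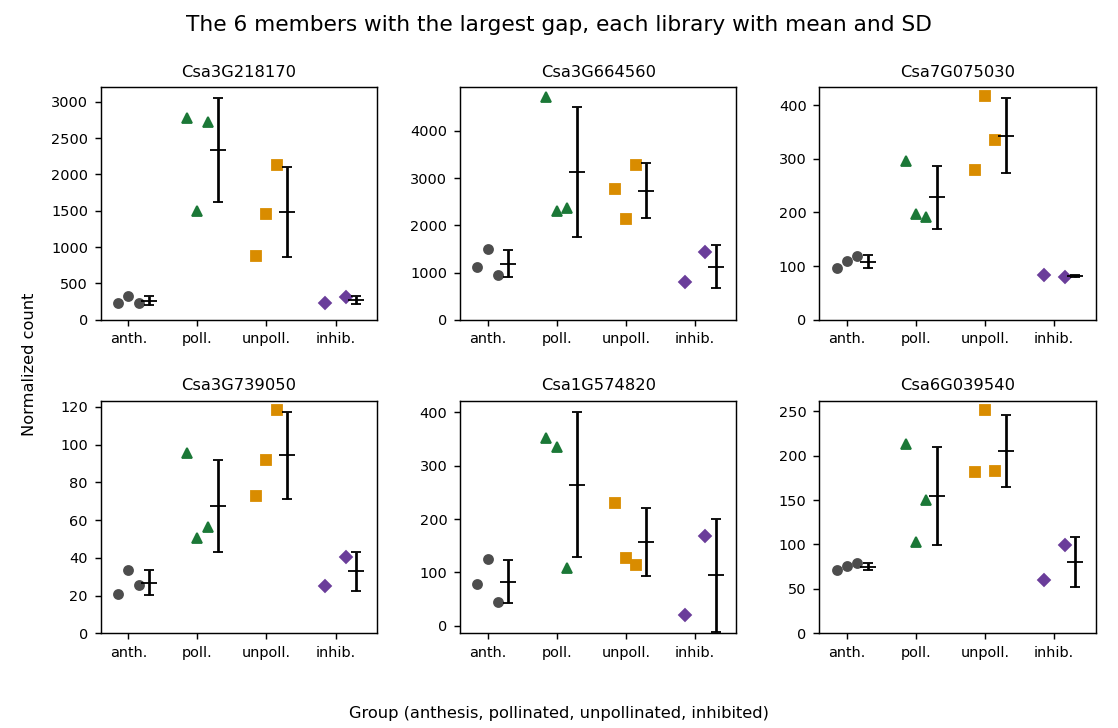
Each panel shows 1 of the 6 genes with the largest gap, with the normalized count on a linear axis for each library of the 4 groups, and the group mean with its SD (n = 3, and n = 2 for inhibited ovaries) as a bar to the right. Csa3G218170 is between 226 and 333 in the low groups and between 879 and 2779 in the high ones, while the inhibited libraries of Csa1G574820 are far apart.

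Csa2G252020 and Csa2G031190 had the highest pollinated means of the 18, and their differences from anthesis (0.75 and 0.86 in pollinated, 1.04 and 0.76 in unpollinated ovaries, log2) lay below the medians of the set. Csa3G664560 and Csa3G218170, next in the order of pollinated means, lay above those medians. Csa2G252020 had normalized counts of 5084, 4726 and 4676 at anthesis, 11409, 6775 and 6906 in pollinated, 8749, 10650.4 and 10383 in unpollinated and 3333 and 5035 in inhibited ovaries. Its unpollinated libraries and pollinated replicate 1 were highest, and inhibited replicate 1 was the lowest of all. The unpollinated mean was 2.06 times and the pollinated mean 1.73 times the anthesis mean. Csa2G031190 had 2581, 2692 and 2120.0 at anthesis, 5416, 3653 and 4467 in pollinated, 3873, 4304 and 4338 in unpollinated and 2019 and 2463 in inhibited ovaries. Pollinated and unpollinated libraries lay between 3653 and 5416, and anthesis and inhibited libraries between 2019 and 2692.

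Several genes had close agreement among the low libraries; these were picked out after their values were seen. Csa3G710200 had normalized counts of 1100.3, 1089 and 959 at anthesis, 2623, 1736 and 1678 in pollinated, 1713, 2449 and 2037 in unpollinated and 1052 and 991 in inhibited ovaries. All 5 low libraries lay between 959 and 1100.4, and the lowest high library was at 1678. Csa3G893960 had 241, 323 and 259.7 at anthesis, 551, 451 and 504 in pollinated, 573, 797 and 731 in unpollinated and 258 and 271 in inhibited ovaries. Its inhibited mean was 265 ± 9.33 (SD, n = 2) beside an anthesis mean of 275 ± 43.04 (SD, n = 3). These 2 genes alone met the rule again whichever single library was left out.

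The remaining genes complete the set, beside Csa6G495740, which had the smallest gap. Csa7G066240 had means of 262 ± 31.7 at anthesis, 506 ± 95.7 in pollinated and 484 ± 36.00 in unpollinated (SD, n = 3 each), and 215 ± 43.4 in inhibited ovaries (SD, n = 2). Csa5G623620 had 58.8 ± 13.8 at anthesis, 143 ± 39.5 in pollinated and 107 ± 15.4 in unpollinated (SD, n = 3 each), and 60.4 ± 22.97 in inhibited ovaries (SD, n = 2). Csa1G046210 had 374 ± 78.5 at anthesis, 648 ± 103 in pollinated and 703 ± 62.03 in unpollinated (SD, n = 3 each), and 307 ± 35.1 in inhibited ovaries (SD, n = 2). In these 3 genes no library of a high group fell within the range of the low groups, by margins of 118, 13.04 and 83.8 normalized counts. Csa3G510960 had means of 188 ± 23.98 at anthesis, 336 ± 95.1 in pollinated and 516 ± 72.6 in unpollinated (SD, n = 3 each), and 191 ± 45.7 in inhibited ovaries (SD, n = 2). Csa7G046660 had 118 ± 25.3 at anthesis, 284 ± 52.6 in pollinated and 238 ± 32.3 in unpollinated (SD, n = 3 each), and 139 ± 26.1 in inhibited ovaries (SD, n = 2). Csa3G510960 was higher without pollination than with it, while Csa7G046660 had its highest mean with pollination. Csa6G517360 had means of 84.96 ± 35.2 at anthesis, 151 ± 19.3 in pollinated and 170.2 ± 11.3 in unpollinated (SD, n = 3 each), and 92.3 ± 46.1 in inhibited ovaries (SD, n = 2), and its gap of 0.79 was 0.27 without inhibited replicate 2.

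The threshold divided a continuous range. Csa6G495740 was the member with the smallest gap, at 0.71 (log2), and Csa2G252020 had 0.75. The normalized counts of Csa6G495740 were 64.6, 72.9 and 65.2 at anthesis, 159, 154 and 149 in pollinated, 106, 138 and 181 in unpollinated and 76.98 and 92.2 in inhibited ovaries. Its pollinated libraries were close together, the inhibited libraries lay just above anthesis, and unpollinated replicate 1 was near inhibited replicate 2. Just outside lay Csa3G734100, with a gap of 0.69 and normalized counts of 512, 575 and 586 at anthesis, 1226, 790.3 and 847 in pollinated, 894, 867 and 953 in unpollinated and 458 and 683 in inhibited ovaries. Csa6G152310 also had 0.69, with 17.95, 17.8 and 18.4 at anthesis, 57.2, 65.1 and 54.4 in pollinated, 29.9, 27.2 and 58.6 in unpollinated and 29.1 and 16.9 in inhibited ovaries. In Csa6G152310 unpollinated replicate 2 was below inhibited replicate 1, and in Csa3G734100 every pollinated and unpollinated library was above every anthesis and inhibited one. At a gap of 0.5 the rule gave 67 genes, and at a gap of 1 it gave 3.

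Between pollinated and unpollinated ovaries, the unpollinated level was the higher in 10 of the 18 genes and the pollinated level in 8. The pollinated level was the higher in 52.2% of all genes with a mean of 50 or more. Differences (pollinated minus unpollinated) ran from -0.64 to 0.69 on the log2 scale, with a median of -0.09, and the rule keeps them under 0.7 in size. Csa3G218170 and Csa1G574820 lay at the pollinated end, with 0.69 and 0.64. Csa3G510960 and Csa7G075030 lay at the other end, with -0.64 and -0.60.

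The edgeR quasi-likelihood fit over all genes (18679 tested, Benjamini-Hochberg adjusted p under 0.05) was made with all libraries. The choice of genes used these contrasts, so the counts of calls follow in part from the rule, and nothing is read from their distance to the shares over all genes. Against anthesis, 16 of the 18 genes were called higher in pollinated ovaries, where 7.39% of all genes were, and 17 in unpollinated ovaries, where 17.6% of all genes were. Inhibited ovaries were called lower than pollinated ones in 13 of the 18 (4.81% of all genes) and lower than unpollinated ones in 14 (9.83% of all genes). Between inhibited ovaries and anthesis, where the rule allows a difference of under 0.5, edgeR called 0 of the 18 (7.37% of all genes in either direction), 0 had an unadjusted p under 0.05 (26.5% of all genes) and DESeq2 called 0 (12.2% of all genes). Pollinated and unpollinated ovaries differed in 3 of the 18, Csa3G510960, Csa3G893960 and Csa7G075030, all lower with pollination, where 30.3% of all genes were called in either direction. Csa1G574820 was called in none of the 6 comparisons.

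The comparisons with inhibited ovaries share their libraries with those against anthesis, and single libraries moved these counts. Calls over all genes fell in most of the same fits. Without inhibited replicate 1 the 13 genes called lower than in pollinated ovaries became 6, and the share of all genes called lower went from 4.81 to 1.26%. With the second index sequence as a term the 13 became 8 (0.808% of all genes), and the 17 called higher in unpollinated ovaries than at anthesis became 8 (4.42% of all genes, in place of 17.6%). The 3 called lower in pollinated than in unpollinated ovaries became 5 without pollinated replicate 1, where 31.5% of all genes were called in either direction. No member was called lower there with the index term (10.1% of all genes called in either direction) or without pollinated replicate 2 (19.6%), where 1 was called higher instead, nor without pollinated replicate 3 (19.5%) or unpollinated replicate 2 (18.1%), where 0 were called either way.

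Within each form of the second index, the values were as follows, all of them from libraries that the choice used. The first form held all anthesis and pollinated libraries, so that the difference between these groups is the one already given. In that form unpollinated replicate 1 exceeded the anthesis mean in all 18 genes (median 1.18, log2, from 0.62 to 1.76). Among libraries with the second form, the mean of unpollinated replicates 2 and 3 exceeded the inhibited mean in all 18 (median 1.28, from 0.68 to 2.72). Single libraries did not all keep that order. In Csa1G574820 inhibited replicate 2 lay above both of these unpollinated replicates. No pollinated or anthesis library carried the second form and no inhibited library the first. Within either form, the index therefore cannot be told apart from the difference between inhibited and pollinated ovaries. The same holds for the difference between inhibited ovaries and anthesis. With the index as a term, 0 of the 18 were called between those 2 groups, where the share of all genes called was 0.091% in place of 7.37%.

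Libraries of the same group were less alike on these genes than over all genes. The highest pollinated library exceeded the lowest by a median factor of 1.61 over the 18 genes, against 1.17 over all genes with a mean of 50 or more. The same factor was 1.39 against 1.15 in unpollinated, 1.31 against 1.15 in anthesis and 1.37 against 1.12 in inhibited ovaries. The rule averaged these same libraries, so the spread and the order within a group are a description. Pollinated replicate 1 was the highest pollinated library in all 18 genes, and in 39.0% of all genes with a mean of 50 or more. Anthesis replicate 2 was the highest anthesis library in 12 of 18 genes (35.8% of all) and the lowest in 0. Unpollinated replicate 1 was the lowest unpollinated library in 13 (35.7% of all), and inhibited replicate 1 the lower inhibited library in 13 (50.0% of all).

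The medians of the inhibited libraries lay on either side of the anthesis mean. The median gene stood at -0.26 (log2) against that mean in inhibited replicate 1 and at 0.15 in replicate 2. In anthesis replicates 1, 2 and 3 themselves it stood at -0.06, 0.22 and -0.13, so inhibited replicate 2 lay within their range. Inhibited replicate 1 was below every anthesis library in 10 genes (34.96% of all genes with a mean of 50 or more) and above every one in 3 (35.2% of all). Inhibited replicate 2 was below in 2 (36.8% of all) and above in 7 (33.8% of all), and the 7 are near the share over all genes. In pollinated replicates 1, 2 and 3 the median was 1.39, 0.89 and 0.90, and in unpollinated replicates 1, 2 and 3 it was 1.18, 1.08 and 1.20. Pollinated replicate 1 and inhibited replicate 2 are among the 4 in which more reads went unassigned. With the rule applied anew without those 4, 12 genes were chosen, of which 6 were among the 18. Pollinated replicate 2 and inhibited replicate 1 were then the only libraries of their groups, so these groups had no measured spread. For the 18 themselves, whose choice used the libraries that remain, inhibited replicate 1 lay below pollinated replicate 2 by a median of 0.98 (smallest 0.35). It lay below the mean of unpollinated replicates 1 and 2 by a median of 1.48 (smallest 0.43).

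Values that the choice had not used were read by leaving out 1 library, applying the rule to the other 10 and looking at the genes so chosen in the library left out. Here the level in the left-out library is free of the choice, but the group levels it is set against were chosen to be low or high, which fixes a part of each difference. The 14 genes chosen without pollinated replicate 1 all lay there at least 0.7 above the higher of the anthesis and inhibited levels (median 1.32), as did 2.05% of all genes with a mean of 50 or more. Of 31 genes chosen without pollinated replicate 2, 30 lay above that level in it and 12 by at least 0.7 (0.818% of all genes). Without pollinated replicate 3 the count at 0.7 or more was 14 of 26 (1.10% of all genes). The left-out pollinated libraries were on the high side for 70 of the 71 gene readings, and by at least 0.7 for 40 of them. A gene found in several choices is counted once for each, so the readings are not independent. Over all genes with a mean of 50 or more the median difference from the same level was -0.08 in each pollinated library.

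The left-out unpollinated libraries were on the high side for 59 of 63 gene readings, which again are not independent. Over all genes the median difference was -0.091, -0.099 and -0.085 in replicates 1, 2 and 3. At least 0.7 above the low groups were 13 of 25 genes in unpollinated replicate 1, 17 of 22 in replicate 2 and 15 of 16 in replicate 3, against 1.75, 2.94 and 2.41% of all genes. Left-out anthesis libraries lay at least 0.7 below the high groups in 15 of 20, 10 of 23 and 14 of 15 genes for replicates 1, 2 and 3, against 0.844, 0.794 and 2.21% of all genes.

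The inhibited group has only 2 libraries, so each choice without 1 of them rested on the other. Of 17 genes chosen without inhibited replicate 1, all lay in it below the lower of the pollinated and unpollinated levels, 11 of them by at least 0.7 (1.45% of all genes). Of 19 genes chosen without inhibited replicate 2, 18 lay below in it and 6 by at least 0.7 (0.970% of all genes). Over all genes with a mean of 50 or more, the lower of those levels minus the left-out level had medians of -0.11 and -0.12. Against the anthesis mean, the chosen genes had a median of -0.15 in inhibited replicate 1 and 0.38 in inhibited replicate 2. Over all genes the medians against anthesis were 0.004 and -0.01. In replicate 1, 7 of the 17 stood above the anthesis mean, and in replicate 2, 15 of the 19 did. The share of all genes above that mean was not counted, and only their medians, near 0, can be set beside these counts. Of the genes chosen on 1 inhibited library, 10 of 17 and 12 of 19 were among the 18.

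**Figure D3:**
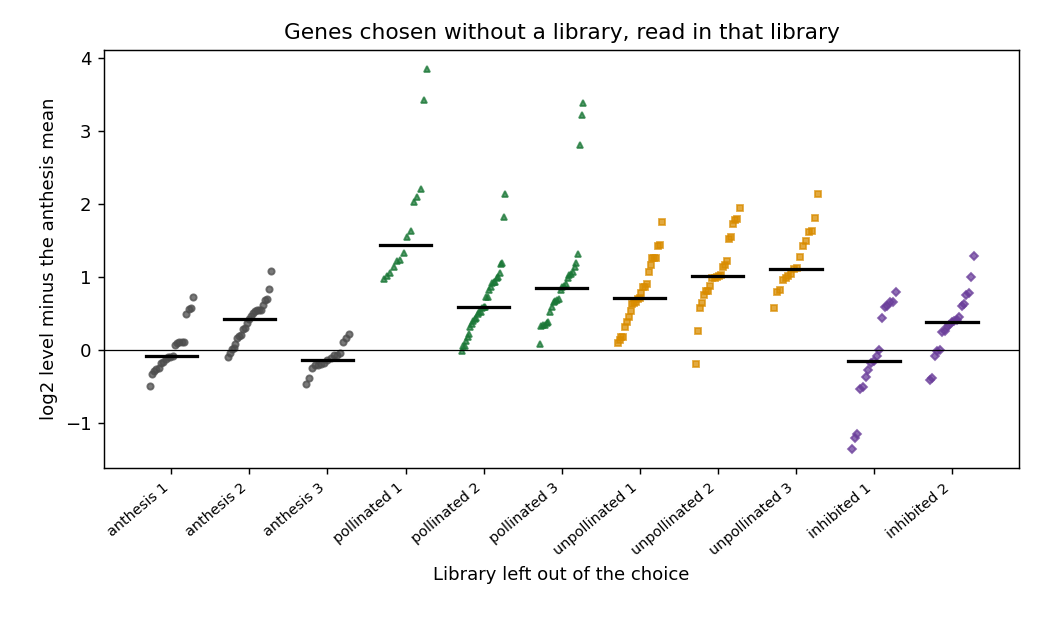
Each column is a library left out of the choice, each symbol a gene chosen from the other 10 libraries and placed by its log2 level in the left-out library minus the anthesis mean of the libraries used, and each bar the median. The medians are between 0.58 and 1.44 in the pollinated and unpollinated libraries, and -0.15 and 0.38 in inhibited replicates 1 and 2.

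With 1 high and 1 low library left out together and the rule applied to the other 9, both ends of a difference were free of the choice; this reading was added after the data were seen. The pairs share libraries and genes, so their readings are not independent. Over the 6 pairs of a pollinated and an inhibited library, 11 to 33 genes were chosen. The left-out pollinated library was the higher in 118 of 138 gene readings, and by at least 0.7 in 64. It was the higher in 69.0 to 100% of the chosen genes by pair, against 50.4 to 52.8% of all genes. By pair, 21.2 to 73.3% of the chosen genes differed by at least 0.7, against 2.46 to 5.11% of all genes with a mean of 50 or more. Over the 6 pairs of an unpollinated and an inhibited library the unpollinated one was the higher in 101 of 117 readings. By pair it was the higher in 76 to 100% of the chosen genes, against 48.7 to 50.6% of all genes. It was higher by at least 0.7 in 39.1 to 76.9% of genes by pair, against 4.41 to 5.51% of all genes. Against left-out anthesis libraries (9 pairs each), pollinated libraries were the higher in 202 of 217 readings, and by at least 0.7 in 116. Unpollinated libraries were the higher in 183 of 194, and by at least 0.7 in 128. By pair, the pollinated library was the higher in 72.97 to 100% of the chosen genes, against 50.5 to 52.04% of all genes. The unpollinated library was the higher in 88.9 to 100% by pair, against 48.5 to 50.99% of all genes. At 0.7 or more the shares of all genes by pair were 1.799 to 5.67% for pollinated and 3.05 to 8.64% for unpollinated libraries. The median difference by pair ran from 0.28 to 1.14 (log2) for pollinated minus inhibited and from 0.58 to 1.297 for unpollinated minus inhibited libraries.

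The 18 genes were also a part of a broader set. In all, 89 genes with a mean of 50 or more stood at least 0.7 above anthesis in both pollinated and unpollinated ovaries, with under 0.7 between them. The 18 made up 20.2% of these. In 29 of the 89 inhibited ovaries were also at least 0.7 above anthesis, in 6 they were at least 0.5 below it, and the other 36 lay in between. The inhibited change as a share of the mean rise of the other groups had a median of 50.3% over the 89 genes. It was under 25% in 31 genes, from 25 to under 50% in 13, from 50 to under 75% in 25, and 75% or more in 20. In the 18 genes it ran from -32.3 to 31.4%, which the rule bounds, and other genes of the 89 lay within that range and on both sides of it. Of the 36 in between, 22 had an inhibited change of under 0.5, as the rule asks, and missed the rule on the gap.

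**Figure D4:**
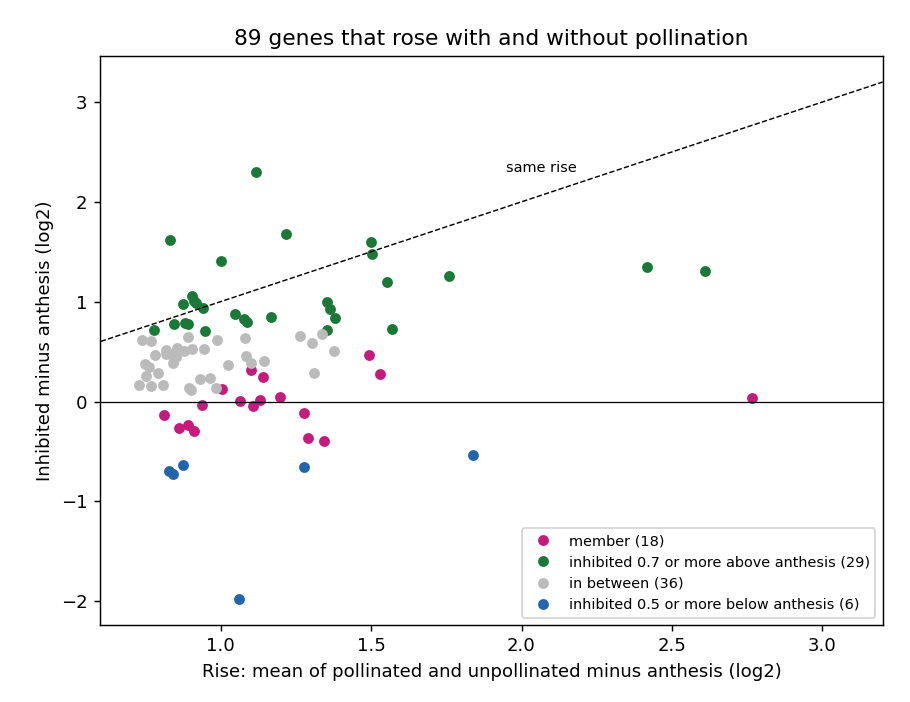
Each point is 1 of the 89 genes, placed by its mean rise in pollinated and unpollinated ovaries over anthesis (horizontal, log2) and by the inhibited level minus anthesis (vertical, log2); the dashed line marks an equal rise. The 18 genes (pink) lie near 0 on the vertical axis, between 29 genes that were also high in inhibited ovaries (green) and 6 below anthesis (blue), and Csa3G218170 is the pink point at the far right. The other 36 genes (grey) lie at 0.11 to 0.67 on the vertical axis and overlap the pink points in height.

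The genes did not lie side by side in the order of identifiers. The nearest members of the same identifier prefix were 103 places apart, and of the 36 genes next to a member in that order 27 had a mean of 50 or more and 1 was among the 89. That gene was Csa3G218160, next to Csa3G218170. Its normalized counts were 189, 201 and 126 at anthesis, 1094, 853 and 1278 in pollinated, 541, 798 and 1066 in unpollinated and 429.9 and 428 in inhibited ovaries. Like Csa3G218170 it was higher than at anthesis in the high groups, by 2.65 and 2.19 (log2), but inhibited ovaries also lay above every anthesis library, by 1.34 on the mean, which kept it outside the rule. It is not known whether reads were counted by strand, and reads shared between adjoining genes were not examined. Identifiers that begin with Csa3 made up 6 of the 18 genes (33.3%) and 20.4% of all genes, and 0 of the 18 begin with Csa4, as 11.9% of all genes do.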

How the data were processed

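RNA-seq of 11 cucumber ovary libraries was analysed from 2 tables deposited by the authors. The first holds whole-number read counts per gene. STAR 2.5.0a, HTSeq 0.6.1p1 and DESeq2 are listed in the submitters' processing notes without their roles. Genome build, annotation and strandedness were not given in the sources used here. The second holds a normalized signal: per the deposited values, each library equals its counts divided by 1 factor (largest relative difference 5.13e-10). Another 5 lines that name no gene were left out. They held 10.8 to 24.8% of a library's reads.

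The 18 genes and the naming of single genes were settled with earlier results of these data known. Named genes are the 6 with the largest gap, the 4 with the highest pollinated mean, the 2 with the smallest gap, the 2 nearest outside, and the others given to account for every member. Replicate numbers follow the order of the records and pair no libraries, and p-values measure the spread between ovaries.

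Calls came from edgeR 4.0.16 in R 4.3.3 (filterByExpr, TMM, glmQLFit and glmQLFTest, 1 model with a mean per group), with Benjamini-Hochberg adjustment over 18679 genes; all 18 passed the filter on low counts. The edgeR code was tried on simulated counts for the comparison of pollinated ovaries with anthesis only. That trial covers neither the rule nor the comparisons with inhibited ovaries. Alternatives were DESeq2 1.42.0, no filter, the second index as a term, only the groups compared, a pseudocount of 8, TMM-adjusted CPM, other thresholds and each library left out. A library left out changes the members where the rule is applied anew. Depth is 18158218 to 26456643 gene reads per library, and reads carry no molecular identifiers in the labels, so their counting error is a lower limit on the true error.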

Additional observations from a re-analysis of the deposited data

How the results depend on the processing

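The number of genes depended on the gap more than on the scale of the values. A gap of 0.5 gave 67 genes and a gap of 1 gave 3, in place of 18; a pseudocount of 8 and TMM-adjusted CPM each gave 18, sharing 17 and 18 with the main choice. Leaving out 1 library gave 14 to 31 genes, the latter without pollinated replicate 2. The median rise in unpollinated ovaries was 1.02 to 1.18 when 1 library was left out. Of the 18 gaps, under 13 alternatives each, only that of Csa1G574820 changed sign, to -0.18 without inhibited replicate 1 (otherwise up to 1.33); the cause was not tested. With the second index as a term, 8 genes in place of 17 were called between unpollinated ovaries and anthesis, 8 in place of 13 between inhibited and pollinated ovaries, and 1 in place of 3, in the other direction, between pollinated and unpollinated ovaries. When 1 library was left out, the last 2 counts were 6 to 14 and 0 to 5. DESeq2, no filter on low counts and a fit of only the compared groups left every count of called members within 1.5 times. No paired analysis was possible because no label ties a replicate of one group to a replicate of another. With 2 inhibited libraries, their spread limits every statement on that group.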

Other observations

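The reverse pattern was present as well, and was counted after the 18 genes had been described. With the same thresholds in the other direction and a mean of 50 or more at anthesis, 25 genes were lower in both pollinated and unpollinated ovaries than at anthesis and in inhibited ovaries. Csa7G389490 had the largest such gap. Its normalized counts were 109, 93.3 and 164 at anthesis, 19.9, 38.3 and 10.7 in pollinated, 49.1, 20.6 and 34.3 in unpollinated and 92.9 and 118 in inhibited ovaries. Every anthesis and inhibited library lay above every other library in this gene. Csa5G160210 had 517, 425 and 559 at anthesis, 162, 169 and 174 in pollinated, 224, 279.6 and 128 in unpollinated and 675 and 493 in inhibited ovaries. Over the 25 genes the median change from anthesis was -1.26 (log2) in pollinated, -1.27 in unpollinated and -0.18 in inhibited ovaries, which the choice fixes. In 16 of them every anthesis and inhibited library lay above every other library, but the choice asks for this order of the group means. The share of all genes with that order was not counted, so nothing is read from the 16. Csa3G175680 and Csa3G175690, which follow each other in the order of identifiers, were both among the 25.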
